A study of Mus musculus with 12 samples.

Results

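Lung fibroblasts with bright and with dim GFP fluorescence were compared after partial pneumonectomy (PNX), the surgical removal of part of the lung. The comparison uses 2 bright and 2 dim arrays, which are all the arrays of these gates after PNX without the dominant negative receptor described below, 4 of the 12 arrays of the study. The mice carried GFP as a reporter of Pdgfra, the gene of PDGF receptor alpha. Lungs were digested with dispase 5 days after surgery, 2000 GFP-positive cells per sample were sorted, and their RNA was amplified over 25 cycles and hybridised to an Affymetrix mouse array. The other arrays, also 2 per group, held bright and dim cells after a sham operation (SHAM) and after PNX in animals with a dominant negative form of FGF receptor 2 (PNX dnFGFR), and all 6 groups shared the reporter and the day. The sources used here give neither strain nor age, nor the promoter and time of induction of the dominant negative receptor. The replicates are labelled as biological, with no word on single animals or pools, so p-values measure the spread between these samples, which may be technical.

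Fibroblasts of the lung interstitium differ by place and task. Alveolar fibroblasts sit in the gas exchange septa, where lipid-laden forms store neutral fat near the surfactant-producing epithelium, and myofibroblasts contract and lay down elastin where new septa form. Adventitial fibroblasts surround airways and vessels and make a collagen and proteoglycan matrix. After pneumonectomy the remaining rodent lung grows back alveoli.

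Pdgfra itself went against the gate names. Its signal was 4.84 and 5.08 on the bright arrays and 6.66 and 6.97 on the dim arrays, a log2 difference (bright minus dim, ± standard error) of -1.86 ± 0.17 (adjusted p = 0.00010), from the only probe set named for the gene. Bright SHAM and bright PNX dnFGFR arrays also lay below their dim counterparts, with differences of -1.85 and -1.54. GFP itself was not measured, so bright and dim below mean the arrays labelled bright and dim, and every direction rests on those labels. Signals are log2 values per probe set, and levels of different genes are not compared with each other.

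Of 11073 genes tested, 1259 were higher in bright than in dim cells (11.4%) and 783 were lower (7.07%), at an adjusted p below 0.05 in limma's moderated test. Over 2-fold differences were found for 714 of the higher (6.45% of genes tested) and 419 of the lower genes (3.78%). Fewer genes passed when either dim array or bright replicate 1 was left out: 1274 without dim replicate 1, 1110 without dim replicate 2 and 1336 without bright replicate 1. Of these, 1211, 1070 and 1195 were among the 2042 called with all arrays. For genes named below, an adjusted p above the threshold with 1 array left out is given beside the gene, and where none is given the gene passed in all 12 such fits. Signals below log2 5.101, the filter level, are not shown to lie above background. Such values inflate some bright minus dim differences after PNX by more than 1.5 times. For these, the difference with all lower values raised to that level is given as the held difference.

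Among the 4 PNX arrays, bright replicate 1 had the highest mean signal over genes of the mesothelium, the cell layer that covers the lung. Wt1, a transcription factor of mesothelial cells, had signals of 5.55 and 2.72 in bright and 2.51 and 2.5 in dim cells. Bnc1, another mesothelial transcription factor, was at 5.57 and 2.23 in bright and 2.80 and 2.23 in dim cells. Upk3b, a uroplakin of the mesothelial surface, was at 8.83 and 5.1 in bright and 7.35 and 3.99 in dim cells. Bright replicate 1 was thus the highest of the 4 arrays for each of these genes, and dim replicate 1 was the next highest for Bnc1 and Upk3b. Over the 12 mesothelial genes tested, the mean signal was 7.71 and 5.57 on the bright and 6.13 and 4.69 on the dim arrays. The other bright arrays had 6.45 and 6.27 after SHAM and 6.82 and 7.52 in PNX dnFGFR, so bright PNX replicate 2 was the lowest bright array. Whether mesothelial cells account for the spread between the bright replicates was not tested. Of these 12 genes 2 were higher in bright cells, Aldh1a2 and Nkain4, and none was lower, against 11.4% of all genes higher and 7.07% lower. With bright replicate 1 left out, the bright minus dim differences of Bnc1 and Upk3b were -0.28 and -0.58. With bright replicate 2 left out, they were 3.06 and 3.15. The number of mesothelial genes that pass thus depends on which bright array is kept.

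Some genes of other cell types, among them Sftpc, Scgb1a1 and Hba-a1, lay above the filter level on all 4 arrays. Others did not, such as Cdh5, which lay below the filter level on both bright arrays. The list counts given here stand beside 11.4% of all genes higher and 7.07% lower. Sftpc, the surfactant protein gene of alveolar type II cells, had signals of 11.96 and 11.92 in bright and 12.28 and 11.58 in dim cells. The mean over 15 epithelial genes was 7.44 and 7.8 on the bright and 8.48 and 7.25 on the dim arrays, and none of them was higher in bright cells. Hopx, a homeodomain gene of alveolar type I cells that fibroblasts can also express, was the single epithelial gene called lower, at -2.47 (adjusted p = 0.00013). Scgb1a1, the secretoglobin of club cells, varied within both gates, with 6.85 and 10.58 in bright and 10.85 and 5.67 in dim cells. So did the haemoglobin gene Hba-a1, with 11.35 and 5.8 in bright and 6.30 and 12.02 in dim cells. Of 22 macrophage and dendritic cell genes none passed in either direction (1 was higher without bright replicate 2), with a median difference of 0.03. Of 14 endothelial genes only Tek passed, the gene of the angiopoietin receptor, at 2.77 (adjusted p = 0.00050). Cdh5, the endothelial cadherin, was at 4.35 and 4.80 in bright and 7.12 and 5.44 in dim cells (adjusted p = 0.074). Of 10 lymphocyte genes, Cd3g and Cd3d, both of the T cell receptor complex, were lower, at -1.89 (adjusted p = 0.012, and 0.074 without dim replicate 1 and 0.057 without bright replicate 2, held difference -0.70) and -0.73 (adjusted p = 0.016, and 0.051 to 0.10 without each of 4 arrays in turn). In sorted bulk samples, fewer cells of a type and less RNA per cell cannot be told apart.

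The genes with the largest differences separated the gates on every PNX array, as 58.4% of all tested genes did. Rbp4, which encodes the plasma carrier of retinol, had signals of 10.68 and 11.06 in bright and 5.62 and 4.29 in dim cells, a difference of 5.91 ± 0.39 (adjusted p = 2.1e-05). Gdf10, a ligand of the TGF-beta superfamily, stood at 10.14 and 10.53 in bright and 5.55 and 5.0 in dim cells, a difference of 5.06 ± 0.43 (adjusted p = 7.6e-05). Dcn, the gene of the collagen-binding proteoglycan decorin, was at 12.14 and 11.97 in bright and 8.48 and 6.14 in dim cells, a difference of 4.74 ± 0.85 (adjusted p = 0.0043). The dim arrays differed from each other more than the bright ones for both Rbp4 and Dcn, and dim replicate 1 was the higher of them. Cd248, which encodes the stromal protein endosialin, was at 9.42 and 9.32 in bright and 4.94 and 4.96 in dim cells, a difference of 4.42 ± 0.15 (adjusted p = 4.6e-07). Scara3, a scavenger receptor gene, was at 9.96 and 9.17 in bright and 2.98 and 2.88 in dim cells, a difference of 6.63 ± 0.31 (adjusted p = 3.1e-06). For Scara3 the dim signals lay under the filter level, and the held difference was 4.47.

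Col15a1 (4.79), Serpinf1 (4.43), Igfbp5 (4.95), Olfml2b (4.31), Aldh1a2 (4.87), Cyp1b1 (5.40), Fndc1 (4.66), Tspan11 (4.05) and Flrt2 (4.01) completed the strongest bright-high genes, with adjusted p-values of 0.0012 or less. Serpinf1 encodes the secreted anti-angiogenic factor PEDF, Igfbp5 an IGF-binding protein, Aldh1a2 a retinaldehyde dehydrogenase that makes retinoic acid and Cyp1b1 a cytochrome P450. The 3 probe sets of Cyp1b1 ran from 0.93 to 5.40. Cxcl13, the chemokine that draws B cells, had signals of 11.25 and 10.78 in bright and 8.22 and 4.60 in dim cells. Its difference of 4.61 had an adjusted p = 0.034, and the call was lost with each of 5 arrays left out, with an adjusted p of 0.21 without dim replicate 2. That was the single gene among the 15 most bright-high whose call did not hold in all 12 fits.

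On the dim side, Slc7a10, an amino acid transporter gene, had signals of 4.71 and 5.04 in bright and 10.43 and 10.42 in dim cells, a difference of -5.55 ± 0.17 (adjusted p = 4.6e-07). Ces1d, a carboxylesterase and lipase gene, was at 5.82 and 6.09 in bright and 10.52 and 10.14 in dim cells, a difference of -4.38 ± 0.88 (adjusted p = 0.0076). Fat3, an atypical cadherin gene, was at 5.57 and 4.52 in bright and 9.54 and 9.51 in dim cells, a difference of -4.47 ± 0.34 (adjusted p = 4.2e-05). In these genes the dim arrays lay within 0.4 log2 of each other. Mapt, the gene of the microtubule protein tau, was at 5.81 and 5.85 in bright and 10.05 and 9.92 in dim cells, a difference of -4.15 ± 0.18 (adjusted p = 2.7e-06). Scube2, which encodes a secreted protein that helps release hedgehog ligands, was at 5.94 and 6.74 in bright and 10.03 and 10.13 in dim cells, a difference of -3.74 ± 0.25 (adjusted p = 2.2e-05). Fgfr4, an FGF receptor gene, was at 7.73 and 8.36 in bright and 11.59 and 11.67 in dim cells, a difference of -3.59 ± 0.26 (adjusted p = 3.5e-05). Fgfr4 and Scube2 remained above the filter level in bright cells, where Fgfr4 still reached a signal of 8.36.

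Gja5, the gene of a gap junction protein, differed by -3.56 and Prkg2, a cGMP-dependent kinase gene, by -3.45. Scn3a, a voltage-gated sodium channel gene, differed by -4.07, Slc1a2, a glutamate transporter gene, by -3.31 and Cdo1, which encodes cysteine dioxygenase, by -3.31. The 2 probe sets of Scn3a ran from -4.07 to -1.26. Cpm (-3.15), Adap2 (-3.09), Popdc2 (-2.99) and Chd7 (-2.82), a chromatin remodeller gene, followed. The adjusted p of these 9 genes was 0.00064 or less, and each passed in all 12 fits with an array left out.

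**Figure D1:**
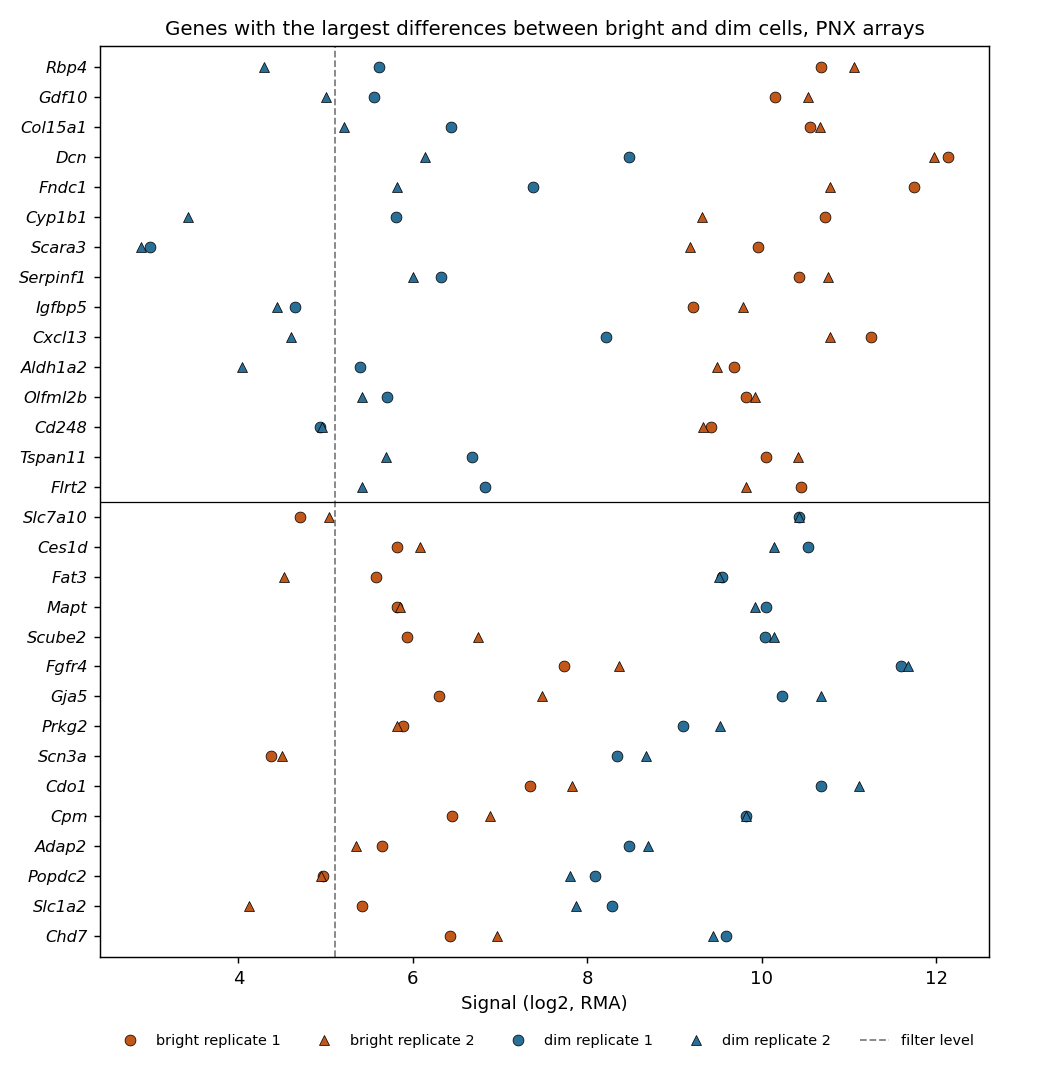
Log2 signal (x axis) of the 15 genes with the largest higher and the 15 with the largest lower signal in bright cells, ranked by held difference, on each of the 4 PNX arrays; circles are replicate 1, triangles replicate 2, and the dashed line is the filter level of log2 5.101. Bright and dim points do not overlap for any of these genes, which their choice required, and the dim points of Cxcl13 are the most widely spaced, at 8.22 and 4.60.

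Fibroblast subtype genes split the gates along adventitial and alveolar lines. The subtype lists were chosen with earlier results of these data known, so their counts are descriptions and not independent support. All 20 adventitial fibroblast genes tested (of 21 listed, 1 not on the array) were higher in bright cells, against 11.4% of all genes, with a median of 2.79 against 0.04 over all genes. Between 16 and 19 passed when any 1 of the 4 PNX arrays was left out. Lum, which encodes the proteoglycan lumican, had signals of 8.93 and 8.25 in bright and 2.71 and 3.06 in dim cells, a difference of 5.70 ± 0.23 (adjusted p = 1.9e-06, held difference 3.49). Scara5, a ferritin receptor gene, was at 8.75 and 9.35 in bright and 2.49 and 3.27 in dim cells, a difference of 6.17 ± 0.33 (adjusted p = 7.2e-06, held difference 3.95). Pi16, a peptidase inhibitor gene and a marker of adventitial fibroblasts, was at 7.07 and 7.29 in bright and 4.78 and 5.01 in dim cells, a difference of 2.29 ± 0.21 (adjusted p = 0.00011). Dim signals of these 3 genes were at or below the filter level. Ly6c1 differed by 2.84 (adjusted p = 0.00082), Entpd2, an ectonucleotidase gene, by 3.63 (adjusted p = 2.0e-06), and Cd34 by 0.93 (adjusted p = 0.0016). The smallest adventitial difference was that of the hyaluronan synthase gene Has1, at 0.79 (adjusted p = 0.039, and 0.051 to 0.20 without each of 8 arrays in turn).

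Alveolar fibroblast genes ran the other way: 16 of 17 genes tested were lower in bright cells, against 7.07% of all genes, and 1 was higher, with a median of -2.41. Between 13 and 16 were lower when any 1 of the 4 PNX arrays was left out. Slc7a10, Ces1d, Fat3, Scube2 and Fgfr4, described above, belong to this list. Itga8, which encodes an integrin subunit of interstitial cells, was at 7.81 and 7.82 in bright and 10.34 and 10.60 in dim cells, a difference of -2.66 ± 0.20 (adjusted p = 3.7e-05). Npnt, the gene of the integrin ligand nephronectin, was at 10.20 and 10.86 in bright and 12.20 and 12.15 in dim cells, a difference of -1.65 ± 0.23 (adjusted p = 0.0010). Tcf21, a transcription factor gene of lipid-laden fibroblasts, was at 7.68 and 8.69 in bright and 10.65 and 10.80 in dim cells, a difference of -2.54 ± 0.30 (adjusted p = 0.00045). Bright replicate 1 was the lowest of the 4 arrays for Npnt and Tcf21. Macf1 (-1.24, adjusted p = 0.00048), Enpep (-1.85, adjusted p = 0.00019), Prex2 (-1.56, adjusted p = 0.0027) and Col13a1 (-2.41, adjusted p = 0.0014) were lower too. Plce1, a phospholipase C gene, was the exception, at 7.66 and 6.36 in bright and 3.88 and 4.15 in dim cells, a difference of 3.0 ± 0.37 (adjusted p = 0.00053, held difference 1.91). Inmt, a methyltransferase gene, showed the smallest lower call, at -0.50 (adjusted p = 0.025, and 0.13 without bright replicate 1 and 0.059 without dim replicate 1 and 0.15 without dim replicate 2).

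Of 12 alveolar myofibroblast genes tested, 9 were higher in bright cells and 2 lower, against 11.4% of all genes higher and 7.07% lower, with a median of 2.29. Fgf18, an FGF ligand gene of septal myofibroblasts, was at 7.82 and 7.74 in bright and 4.66 and 4.03 in dim cells, a difference of 3.43 ± 0.33 (adjusted p = 0.00015). Aspn, the gene of the proteoglycan asporin, was at 6.83 and 7.16 in bright and 3.78 and 3.71 in dim cells, a difference of 3.25 ± 0.20 (adjusted p = 1.5e-05, held difference 1.90). Tgfbi, a matrix gene induced by TGF-beta, was at 9.50 and 9.44 in bright and 7.01 and 6.12 in dim cells, a difference of 2.90 ± 0.34 (adjusted p = 0.00045). The lower genes were Pdgfra and Tnc, the gene of tenascin C, at -1.86 (adjusted p = 0.011, and 0.062 without dim replicate 1 and 0.060 without bright replicate 2). When any 1 of the 4 PNX arrays was left out, 6 or 7 genes of this list were higher. Among 9 pericyte genes tested, 4 were higher and 2 lower (1 without either dim array). Pdgfrb, the gene of PDGF receptor beta, was at 8.88 and 9.21 in bright and 6.35 and 5.59 in dim cells, a difference of 3.07 ± 0.25 (adjusted p = 5.6e-05). Kcnj8, a potassium channel gene, was at 8.13 and 8.48 in bright and 3.49 and 3.36 in dim cells, a difference of 4.88 ± 0.15 (adjusted p = 4.6e-07, held difference 3.21). Lamc3, a laminin gene, differed by 2.80 (adjusted p = 1.4e-05). Gucy1b1, a guanylate cyclase subunit gene of the pericyte list, went the other way and had its lowest difference, at -2.97. Rgs5 and Higd1b, which mark pericytes, did not reach the filter and were not tested. In the pan-fibroblast list, Thy1, the gene of a surface glycoprotein, was at 8.04 and 8.2 in bright and 5.24 and 4.10 in dim cells, a difference of 3.45 ± 0.44 (adjusted p = 0.00065). Col1a1, a fibrillar collagen gene, was at 12.35 and 12.34 in bright and 11.95 and 11.93 in dim cells, a difference of 0.41 (adjusted p = 0.050, and 0.051 to 0.18 without each of 12 arrays in turn). Col1a1, which fibroblasts express strongly, was thus far above the filter level on all 4 arrays, its bright signals exceeded its dim ones by little, and its call was lost in every fit with an array left out.

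**Figure D2:**
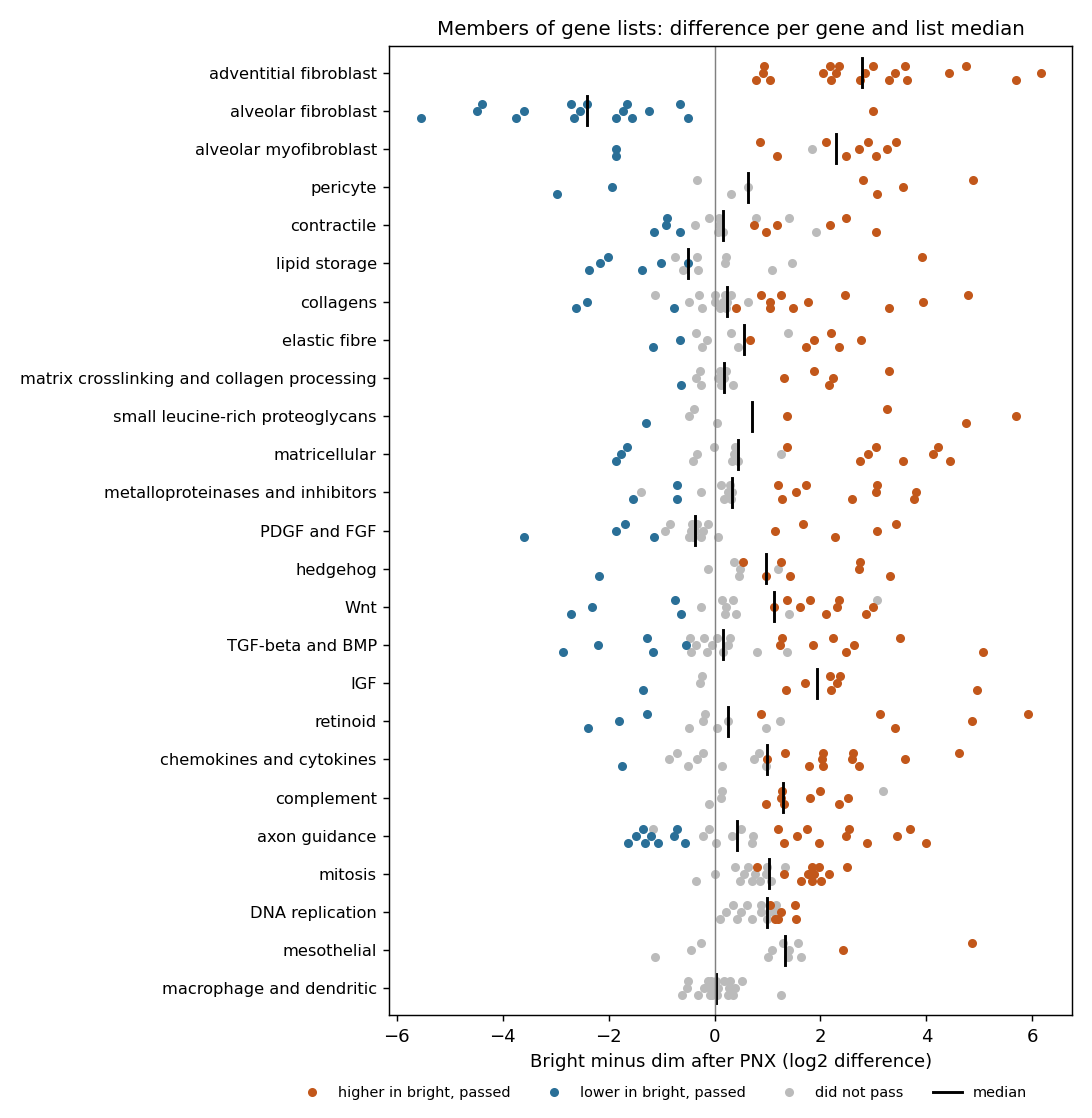
Bright minus dim log2 difference after PNX (x axis) for every tested member of 25 gene lists; orange points passed as higher in bright cells, blue as lower, grey did not pass, and black bars are list medians. The adventitial list lies wholly to the right of 0 and the alveolar fibroblast list to the left except for Plce1, while the macrophage and dendritic list is centred near 0 with no gene passing.

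Contractile genes differed in both directions. Of 19 tested (25 listed, 3 below the filter, 3 not on the array), 6 were higher in bright cells, 4 were lower and 9 did not pass, against 11.4% of all genes higher and 7.07% lower, with a median of 0.15. Acta2, the gene of smooth muscle actin and the usual mark of myofibroblasts, had signals of 9.73 and 10.11 in bright and 7.34 and 7.55 in dim cells, a difference of 2.47 ± 0.45 (adjusted p = 0.0046). Myl9, which encodes a regulatory myosin light chain, was at 9.98 and 10.65 in bright and 7.43 and 7.11 in dim cells, a difference of 3.04 ± 0.22 (adjusted p = 3.5e-05). Tpm2, a tropomyosin gene, was at 9.92 and 9.43 in bright and 7.62 and 7.38 in dim cells, a difference of 2.17 ± 0.26 (adjusted p = 0.00051). Both bright arrays exceeded both dim arrays by at least 1.8 log2 in these 3 genes. Tpm1 differed by 0.75 (adjusted p = 0.0061), Pdlim7 by 0.98 (adjusted p = 0.0077, and 0.067 without dim replicate 2) and Myh11, the smooth muscle myosin heavy chain gene, by 1.18 (adjusted p = 0.0066, and 0.052 without dim replicate 2). Lower in bright cells were Cnn2, a calponin gene, at -0.66 (adjusted p = 0.0059), and the myosin light chain kinase gene Mylk at -0.89 (adjusted p = 0.016, and 0.093 without bright replicate 1 and 0.11 without dim replicate 2). The vinculin gene Vcl was lower at -0.92 (adjusted p = 0.020, and 0.092 without bright replicate 1 and 0.061 without dim replicate 1 and 0.12 without dim replicate 2) and the desmin gene Des at -1.14 (adjusted p = 0.048, and 0.054 to 0.21 without each of 11 arrays in turn). Fewer contractile genes were lower when any 1 of the 4 PNX arrays was left out. The count of higher genes fell without dim replicate 2 and rose without bright replicate 2.

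Contractile genes are known targets of serum response factor, which binds the CArG box, so the 250 bases before the RefSeq start of each gene (GRCm38.p6) were searched for that motif on both strands. The pattern searched was CCWWWWWWGG, where W is A or T, with no mismatch allowed, and it is its own reverse complement. It was found for 4 of the 18 contractile genes with a promoter entry, against 1.46% of all tested genes with an entry and 1.47% of all 32851 windows. The stretches of the 3 called genes are shown because genes of both directions are among them, with the motif in capitals and up to 25 bases on each side, read 5′ to 3′ on the gene's strand.
Myl9, higher in bright cells, chr2:156775278-156775337, plus strand: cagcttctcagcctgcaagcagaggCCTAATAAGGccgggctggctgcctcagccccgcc
Cnn2, lower in bright cells, chr10:79988519-79988578, plus strand: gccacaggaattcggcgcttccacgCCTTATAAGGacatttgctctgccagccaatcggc
Vcl, lower in bright cells, chr14:20929148-20929205, plus strand: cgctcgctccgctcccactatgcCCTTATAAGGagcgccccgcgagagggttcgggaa
Cnn2 and Vcl carry the same 10 letters and Myl9 a variant of them. A match describes the letters in this window and is not a measured binding site. The windows of Acta2 and Tpm2 held no match to this strict pattern, and forms with a mismatch were not searched.

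Of 15 lipid storage genes tested 6 were lower in bright cells, 1 was higher and 8 did not pass, against 11.4% of all genes higher and 7.07% lower, with a median of -0.49. Plin2, which coats lipid droplets and marks lipid-laden fibroblasts, had signals of 8.85 and 9.19 in bright and 10.28 and 10.49 in dim cells, a difference of -1.36 ± 0.21 (adjusted p = 0.0020). Pparg, the nuclear receptor of fat storage, was at 5.15 and 6.55 in bright and 8.45 and 8.0 in dim cells, a difference of -2.38 ± 0.45 (adjusted p = 0.0061). Dgat2, which makes triglyceride, was at 6.74 and 7.11 in bright and 8.89 and 8.99 in dim cells, a difference of -2.02 ± 0.20 (adjusted p = 0.00016). G0s2, an inhibitor of triglyceride lipase, was lower as well, at 8.51 and 9.27 in bright and 11.10 and 11.002 in dim cells, a difference of -2.16 ± 0.22 (adjusted p = 0.00019). Lipe, the hormone-sensitive lipase gene, was at -1.01 (adjusted p = 0.012, and 0.082 without bright replicate 1 and 0.080 without dim replicate 2). For Pparg, Dgat2, G0s2 and Plin2, bright replicate 1 had the lowest signal of the 4 arrays. Fabp4, a fatty acid binding protein gene of fat cells and endothelium, was higher, at 9.58 and 6.19 in bright and 4.03 and 3.90 in dim cells, a difference of 3.92 ± 0.90 (adjusted p = 0.015, and 0.064 without dim replicate 1 and 0.078 without dim replicate 2). Cholesterol synthesis genes had 5 of 14 lower and 1 higher, and only 1 was lower without bright replicate 1 or dim replicate 2. Msmo1, a sterol oxidase gene, was the lower gene that passed in every fit, at -0.99 (adjusted p = 0.0019).

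Calls among matrix genes leaned to the bright side, as did those over all genes, of which 11.4% were higher and 7.07% lower. Among 27 collagen genes tested 11 were higher and 3 lower, with a median of 0.23. Fewer collagen genes were higher when any 1 of the 4 PNX arrays was left out. Col15a1, a collagen of basement membrane zones, had signals of 10.56 and 10.66 in bright and 6.43 and 5.21 in dim cells. Col14a1, a collagen that associates with fibrils, was at 11.09 and 11.46 in bright and 8.28 and 7.69 in dim cells, a difference of 3.29 ± 0.44 (adjusted p = 0.00094). Col5a3, of the fibril-forming type V, was at 9.23 and 8.35 in bright and 5.46 and 4.25 in dim cells, a difference of 3.94 ± 0.48 (adjusted p = 0.00054). The type V genes Col5a1 (1.25, adjusted p = 0.0019) and Col5a2 (0.88, adjusted p = 0.0062) were higher by less, and the type IV genes Col4a4 (1.76, adjusted p = 0.0037, held difference 0.90), Col4a5 (1.04, adjusted p = 0.0043) and Col4a6 (2.46, adjusted p = 0.00015) were higher too. Lower were Col23a1, a transmembrane collagen, at 6.68 and 7.57 in bright and 9.78 and 9.69 in dim cells, a difference of -2.61 ± 0.27 (adjusted p = 0.00023), the transmembrane Col13a1 and Col18a1, at -0.76 (adjusted p = 0.0086, and 0.060 without dim replicate 1).

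Elastic fibre genes had 6 of 14 higher and 2 lower, the latter 1 without bright replicate 1 or either dim array. Fewer elastic fibre genes were higher without bright replicate 1 or dim replicate 2. Over all genes tested, 11.4% were higher and 7.07% lower. Mfap5, a microfibril protein gene, was at 10.97 and 11.27 in bright and 8.67 and 8.86 in dim cells, a difference of 2.36 ± 0.19 (adjusted p = 5.1e-05). Mfap2, of the same family, was at 9.46 and 9.66 in bright and 7.50 and 7.24 in dim cells, a difference of 2.19 ± 0.20 (adjusted p = 0.00011). Fbln1, the fibulin 1 gene, was at 12.18 and 12.50 in bright and 10.60 and 10.31 in dim cells, a difference of 1.88 ± 0.20 (adjusted p = 0.00027). Eln, which encodes elastin itself, was at 12.24 and 12.17 in bright and 11.84 and 11.68 in dim cells, a difference of 0.44 ± 0.15 that did not pass (adjusted p = 0.074). Efemp1, which encodes fibulin 3, was lower, at -1.16 (adjusted p = 0.0016). Among 15 genes of crosslinking and collagen processing 5 were higher and 1 lower (none without either first replicate). The higher ones were the lysyl oxidase genes Loxl2 (1.88, adjusted p = 0.00015), Loxl3 (1.31, adjusted p = 0.0022) and Loxl4 (2.16, adjusted p = 0.0062), the procollagen protease gene Bmp1 (2.23, adjusted p = 0.0014) and the prolyl hydroxylase gene P4ha3 (3.30, adjusted p = 0.00092, held difference 2.12). These 5 genes were counted in every fit with an array left out.

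Of 8 small leucine-rich proteoglycan genes tested, Lum, Dcn, Aspn and Podn were higher, and Prelp, which links basement membranes to collagen, was lower, at 9.80 and 10.54 in bright and 11.41 and 11.50 in dim cells, a difference of -1.29 ± 0.22 (adjusted p = 0.0034). Matricellular genes had 8 of 19 higher and 3 lower, with a median of 0.44. These list counts, and those that follow, stand beside 11.4% of all genes higher and 7.07% lower. Cthrc1, a secreted gene of activated fibroblasts, was at 7.27 and 7.20 in bright and 2.78 and 3.24 in dim cells, a difference of 4.22 ± 0.24 (adjusted p = 9.1e-06, held difference 2.13). Postn, the periostin gene, was at 7.88 and 8.26 in bright and 4.63 and 4.39 in dim cells, a difference of 3.56 ± 0.24 (adjusted p = 2.2e-05). Smoc2, a calcium-binding matrix gene, was at 8.43 and 9.05 in bright and 4.44 and 4.14 in dim cells, a difference of 4.45 ± 0.25 (adjusted p = 9.2e-06). Vcan, the versican gene, differed by 3.06 (adjusted p = 0.0010) and Thbs2, of thrombospondin 2, by 4.12 (adjusted p = 0.00075, held difference 2.55). Ccn5 was lower, at 7.56 and 8.36 in bright and 9.77 and 9.69 in dim cells, a difference of -1.77 ± 0.30 (adjusted p = 0.0034). Among 20 metalloproteinase and inhibitor genes 9 were higher and 3 lower (none without dim replicate 2). Mmp23 was at 10.37 and 10.20 in bright and 6.92 and 6.03 in dim cells, a difference of 3.81 ± 0.27 (adjusted p = 3.2e-05), and Adam12 at 9.54 and 7.68 in bright and 5.20 and 4.48 in dim cells, a difference of 3.77 ± 0.58 (adjusted p = 0.0020). Timp1, a metalloproteinase inhibitor gene, was at 9.77 and 10.02 in bright and 7.75 and 8.59 in dim cells, a difference of 1.73 ± 0.33 (adjusted p = 0.0065). Of 13 integrin genes 3 were higher (1 without dim replicate 2) and 1 lower (2 without bright replicate 1). Itgbl1, an integrin-like gene, was higher at 4.11 (adjusted p = 5.0e-05), and the lower one was Itga8.

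Growth factor pathways held genes of both directions. Of 21 PDGF and FGF genes tested 5 were higher and 4 lower, against 11.4% of all genes higher and 7.07% lower, with a median of -0.37. Among receptors, Pdgfrb and Fgfr2 were higher and Pdgfra and Fgfr4 lower. Fgfr2, the receptor that the dominant negative form targets, was at 9.39 and 9.21 in bright and 8.18 and 7.09 in dim cells, a difference of 1.67 ± 0.36 (adjusted p = 0.012, and 0.064 without bright replicate 1 and 0.076 without dim replicate 2). Its 3 probe sets ran from -0.016 to 1.79. Pdgfrl was at 2.28 (adjusted p = 9.8e-05). Spry1, Spry2, Spred1 and Spred2, feedback inhibitors in the list, were not among the 4 lower genes. The feedback inhibitors of FGF and receptor kinase signalling Spry4 and Dusp6 were lower, at -1.15 (adjusted p = 0.0012) and -1.68 (adjusted p = 0.014, and 0.086 without dim replicate 1 and 0.075 without bright replicate 2). IGF genes had 7 of 10 higher and 1 lower (none without any 1 of the PNX arrays), against 11.4% of all genes higher and 7.07% lower. Higher were the ligands Igf1, at 11.41 and 11.48 in bright and 10.04 and 10.14 in dim cells, a difference of 1.35 ± 0.14 (adjusted p = 0.00021), and Igf2, at 1.71 (adjusted p = 0.0034). Also higher were the binding proteins Igfbp4 (2.17, adjusted p = 9.5e-05), Igfbp5 and Igfbp6 (2.20, adjusted p = 0.00019), and the binding-protein proteases Pappa (2.31, adjusted p = 0.00029) and Pappa2 (2.37, adjusted p = 0.0013, held difference 0.55). The count of 7 higher genes was the same without each of the 4 PNX arrays.

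Hedgehog genes had 7 of 13 higher and 1 lower, against the same shares of all genes, with a median of 0.98. Only 4 were higher without dim replicate 1, without dim replicate 2 and without bright replicate 2. Gli1, the target and effector that reports hedgehog activity, was at 7.08 and 8.11 in bright and 4.64 and 5.07 in dim cells, a difference of 2.74 ± 0.35 (adjusted p = 0.00068). The co-receptor gene Cdon stood at 8.31 and 8.06 in bright and 4.90 and 4.87 in dim cells, a difference of 3.31 ± 0.18 (adjusted p = 9.1e-06). Gas1, another co-receptor gene, was at 9.08 and 8.85 in bright and 7.45 and 7.63 in dim cells, a difference of 1.42 ± 0.18 (adjusted p = 0.00067). Gli2, another effector, differed by 1.26 (adjusted p = 0.0015). Foxf2, a forkhead gene of gut and lung mesenchyme, was lower, at 6.81 and 6.85 in bright and 8.93 and 9.10 in dim cells, a difference of -2.19 ± 0.35 (adjusted p = 0.0024). Scube2, which was lower too, was not in this list and is not in its count.

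In the Wnt list 9 of 21 were higher and 4 lower, against 11.4% of all genes higher and 7.07% lower, the latter 2 without dim replicate 1, dim replicate 2 or bright replicate 2. Fewer Wnt genes were higher without bright replicate 1 or either dim array. Ligands divided: Wnt5a, a ligand of the non-canonical branch, was at 8.25 and 8.22 in bright and 6.01 and 6.26 in dim cells, a difference of 2.10 ± 0.34 (adjusted p = 0.0024). Wnt2, a ligand of distal lung mesenchyme, was lower, at 7.46 and 6.86 in bright and 9.69 and 10.05 in dim cells, a difference of -2.71 ± 0.23 (adjusted p = 8.9e-05). The receptor genes Fzd2 and Fzd4 were higher, at 2.34 (adjusted p = 0.00092) and 2.31 (adjusted p = 6.9e-05), and so was the secreted inhibitor Sfrp1, at 2.99 (adjusted p = 0.0052). Notum, an enzyme that inactivates Wnt ligands and is a target of the pathway, was lower, at 5.1 and 5.02 in bright and 7.33 and 7.41 in dim cells, a difference of -2.31 ± 0.19 (adjusted p = 6.6e-05). Axin2, another pathway target, was lower, at -0.75 (adjusted p = 0.012, and 0.055 without dim replicate 1 and 0.059 without bright replicate 2 and 0.070 without dim replicate 2).

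TGF-beta and BMP genes had 8 of 25 higher and 5 lower, against 11.4% of all genes higher and 7.07% lower, with a median of 0.16. The ligand gene Tgfb3 was at 10.09 and 9.99 in bright and 7.77 and 7.82 in dim cells, a difference of 2.24 ± 0.22 (adjusted p = 0.00015). Tgfb2, another ligand gene, was at 7.0 and 6.16 in bright and 4.45 and 3.76 in dim cells, a difference of 2.48 ± 0.40 (adjusted p = 0.0024, held difference 1.48). Inhba, of activin A, and Fst, of its antagonist follistatin, were both higher, at 3.50 (adjusted p = 0.00050) and 2.63 (adjusted p = 2.0e-05). Of the BMP genes, Bmp4 was lower, at 8.30 and 9.0 in bright and 9.998 and 9.84 in dim cells, a difference of -1.27 ± 0.24 (adjusted p = 0.0059). So was the BMP antagonist Chrdl1, at 5.46 and 6.10 in bright and 8.05 and 7.91 in dim cells, a difference of -2.20 ± 0.37 (adjusted p = 0.0031), whereas the antagonist Chrd was higher, at 1.24 (adjusted p = 0.0029). The lower genes numbered 3 without bright replicate 1 or dim replicate 1 and 2 without dim replicate 2. Of 7 Notch genes 1 was higher and 1 lower (none without bright replicate 1 or either dim array). The ligand Jag1 was the higher one, at 8.27 and 8.49 in bright and 6.08 and 5.12 in dim cells, a difference of 2.78 ± 0.31 (adjusted p = 0.00031).

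Retinoid genes spanned both ends of the comparison. Of 15 tested 5 were higher and 3 lower (1 without dim replicate 2), against 11.4% of all genes higher and 7.07% lower. The retinoic acid synthesis genes Aldh1a2 and Aldh1a3 were higher in bright cells, Aldh1a3 at 8.38 and 9.06 in bright and 5.17 and 6.01 in dim cells, a difference of 3.13 ± 0.38 (adjusted p = 0.00055). Their relative Aldh1a1 was lower, at 9.54 and 9.05 in bright and 11.07 and 11.13 in dim cells, a difference of -1.80 ± 0.31 (adjusted p = 0.0035). Aldh1a2 is also a mesothelial gene. Its bright signals were 9.68 and 9.49, and how far mesothelial cells contribute to them was not tested. Adh7, which oxidises retinol, was higher, at 3.41 (adjusted p = 0.00025). Lrat, which esterifies retinol for storage, was lower, at 4.93 and 5.70 in bright and 7.41 and 7.98 in dim cells, a difference of -2.38 ± 0.45 (adjusted p = 0.0058, and 0.051 without dim replicate 2). Carrier, synthesis and storage genes of the retinoid pathway thus differed in direction.

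Chemokine and cytokine genes had 11 of 21 higher (7 without either dim array) and 1 lower (2 without either bright array), against 11.4% of all genes higher and 7.07% lower, with a median of 1.0. Il33, an alarmin of stromal cells, was at 6.89 and 6.66 in bright and 3.54 and 2.82 in dim cells, a difference of 3.59 ± 0.40 (adjusted p = 0.00035, held difference 1.67). Cxcl16 was at 9.67 and 9.19 in bright and 7.59 and 7.21 in dim cells, a difference of 2.03 ± 0.22 (adjusted p = 0.00026). Cx3cl1 differed by 1.34 (adjusted p = 0.0046), Ccl7 by 1.79 (adjusted p = 0.0017, held difference 0.94) and Ackr3, a scavenging receptor of Cxcl12, by 2.73 (adjusted p = 2.0e-05, held difference 0.69). Cxcl12 itself was at 7.48 and 7.82 in bright and 5.48 and 5.73 in dim cells, a difference of 2.05 ± 0.41 (adjusted p = 0.0076, and 0.051 without dim replicate 1). Kitl, the stem cell factor gene, was the lower one, at 7.72 and 7.84 in bright and 9.55 and 9.49 in dim cells, a difference of -1.74 ± 0.19 (adjusted p = 0.00033). Complement genes had 8 of 12 higher and none lower, against the same 11.4% and 7.07%, with a median of 1.29. These were the classical protease genes C1ra (1.27, adjusted p = 0.0014), C1s1 (1.31, adjusted p = 0.0010) and C2 (2.35, adjusted p = 0.00036) and C4b (1.26, adjusted p = 0.0093, and 0.059 without dim replicate 1). Also among them were factor B (Cfb, 2.0, adjusted p = 0.0010), the inhibitor factor I (Cfi, 2.51, adjusted p = 0.00014, held difference 0.86), Cd55 (1.80, adjusted p = 0.0080, and 0.051 without dim replicate 2) and C1qtnf1 (0.98, adjusted p = 0.0018).

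Transcription factor genes of mesenchyme divided as well, 9 of 31 higher and 6 lower, against 11.4% of all genes higher and 7.07% lower. Gata6, a zinc finger gene, was at 9.55 and 8.83 in bright and 6.07 and 4.58 in dim cells, a difference of 3.87 ± 0.46 (adjusted p = 0.00049). Osr1 was at 9.68 and 9.80 in bright and 6.99 and 6.55 in dim cells, a difference of 2.97 ± 0.21 (adjusted p = 2.7e-05). Twist2 was at 7.42 and 7.41 in bright and 4.54 and 4.40 in dim cells, a difference of 2.95 ± 0.26 (adjusted p = 0.00010). Ebf1 (2.96, adjusted p = 9.5e-05), Prrx2 (2.80, adjusted p = 0.00011) and Prrx1 (1.22, adjusted p = 0.0042) were higher too. The T-box genes Tbx2, Tbx4 and Tbx5, which mark and pattern lung mesenchyme, were all lower, with differences of -1.97 (adjusted p = 0.0020), -1.41 (adjusted p = 0.00054) and -1.03 (adjusted p = 0.0026). None of 12 Hox genes passed, and their median was -0.37. Among 23 immediate early genes 4 were higher (2 without dim replicate 2) and 1 lower (none without any 1 of the PNX arrays), against 11.4% of all genes higher and 7.07% lower. Of the higher genes, Klf4 was at 9.27 and 9.42 in bright and 6.11 and 6.22 in dim cells, a difference of 3.18 ± 0.38 (adjusted p = 0.00050). Myc was at 8.05 and 8.26 in bright and 4.98 and 4.98 in dim cells, a difference of 3.18 ± 0.41 (adjusted p = 0.00072).

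Guidance genes, first known from growing axons, held many calls in both directions: 11 of 28 were higher and 9 lower (2 to 5 lower without any 1 of the 4 PNX arrays), against 11.4% of all genes higher and 7.07% lower. Sema3c, a class 3 semaphorin gene, was at 9.65 and 10.05 in bright and 6.82 and 5.98 in dim cells, a difference of 3.45 ± 0.35 (adjusted p = 0.00019). Efna5, an ephrin gene, was at 9.10 and 9.10 in bright and 5.62 and 5.19 in dim cells, a difference of 3.69 ± 0.24 (adjusted p = 2.0e-05). Ntn1, of netrin 1, was at 8.08 and 8.59 in bright and 5.49 and 5.41 in dim cells, a difference of 2.89 ± 0.31 (adjusted p = 0.00029). Sema3d differed by 4.0 (adjusted p = 1.8e-05, held difference 1.81) and Epha4, an ephrin receptor gene, by 1.98 (adjusted p = 7.8e-05). Slit2, a ligand of Robo receptors, was lower, at 8.0 and 7.93 in bright and 9.45 and 9.42 in dim cells, a difference of -1.47 ± 0.16 (adjusted p = 0.00031), together with the receptor gene Robo2, at -1.63 (adjusted p = 0.00072).

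Nitric oxide and cGMP genes had 4 of 11 higher and 4 lower, against 11.4% of all genes higher and 7.07% lower, and 2 were lower without either dim array. Gucy1b1, a subunit of the nitric oxide receptor guanylate cyclase, was at 4.82 and 5.0 in bright and 7.97 and 7.8 in dim cells, a difference of -2.97 ± 0.32 (adjusted p = 0.00026). Prkg2, the kinase described above, was also lower. The phosphodiesterase genes Pde1a and Pde1b were higher, at 2.46 (adjusted p = 0.00099, held difference 1.41) and 1.53 (adjusted p = 0.0034). In the transporter list 6 of 20 were lower and 2 higher (1 without dim replicate 1 and 4 without bright replicate 2), among them Slc38a5, of glutamine, at 7.89 and 8.27 in bright and 9.94 and 10.09 in dim cells, a difference of -1.94 ± 0.23 (adjusted p = 0.00047). The taurine transporter gene Slc6a6 was at -1.34 (adjusted p = 0.0021). Imprinted genes had 8 of 12 higher (5 without dim replicate 1) and none lower, against 11.4% of all genes higher and 7.07% lower. The non-coding gene Meg3 was at 10.60 and 10.14 in bright and 7.08 and 5.70 in dim cells, a difference of 3.98 ± 0.40 (adjusted p = 0.00019). Rian, a non-coding gene of the same imprinted cluster, was at 9.35 and 8.2 in bright and 4.71 and 4.44 in dim cells, a difference of 4.20 ± 0.33 (adjusted p = 5.1e-05). Both lay far higher on each bright than on each dim array, and Cdkn1c, a cell cycle inhibitor gene, differed by 1.68 (adjusted p = 0.0021).

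Of 24 mitosis genes tested 11 passed as higher in bright cells and none as lower, against 11.4% of all genes higher and 7.07% lower, with a median of 1.03. Of these 11 calls 7 were lost with some array left out. The count was 4 without bright replicate 1, 5 without bright replicate 2, 6 without dim replicate 1 and 5 without dim replicate 2. Birc5, the survivin gene, was at 6.35 and 5.83 in bright and 4.13 and 4.29 in dim cells, a difference of 1.88 ± 0.22 (adjusted p = 0.00043, held difference 0.99). Ccna2, of cyclin A, was at 7.81 and 7.58 in bright and 5.99 and 5.70 in dim cells, a difference of 1.85 ± 0.35 (adjusted p = 0.0056). Mki67, the usual mark of cycling cells, was at 6.72 and 6.29 in bright and 4.62 and 3.40 in dim cells, a difference of 2.49 ± 0.68 (adjusted p = 0.032, and 0.14 without bright replicate 1 and 0.069 without bright replicate 2 and 0.19 without dim replicate 2, held difference 1.40). Prc1 (1.97, adjusted p = 0.0052) and Cenpf (1.77, adjusted p = 0.0075, held difference 0.46) were the other two that passed in all fits, and the 3 probe sets of Cenpf disagreed, from -0.31 to 2.64. Of 19 DNA replication genes 6 were higher, with a median of 1.0, and 1 was higher without bright replicate 1 and 2 without bright replicate 2 or dim replicate 2. Rrm1, a ribonucleotide reductase gene, was at 7.61 and 7.18 in bright and 6.32 and 6.08 in dim cells, a difference of 1.19 ± 0.18 (adjusted p = 0.0018). In each of these 6 genes both bright signals lay above both dim signals. Bright and dim arrays did not overlap for 58.4% of all tested genes either.

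**Figure D3:**
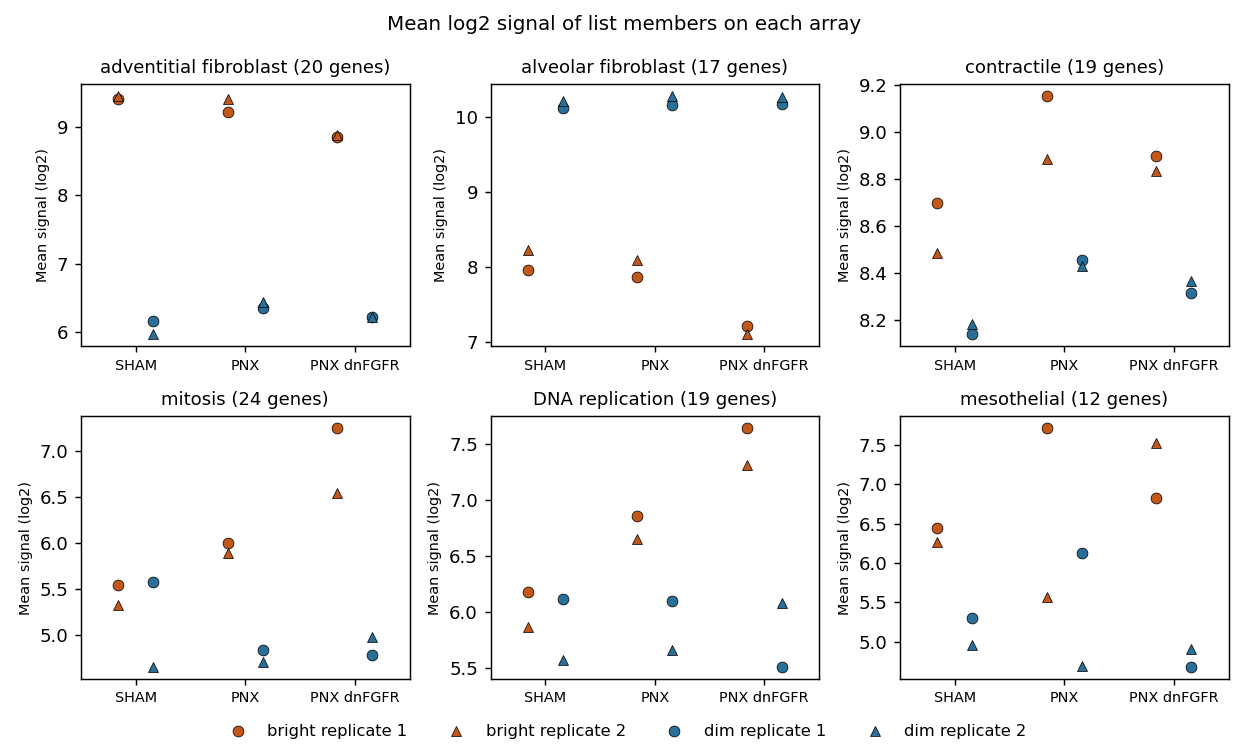
Mean log2 signal (y axis) over the tested members of 6 gene lists on each of the 12 arrays, by condition; circles are replicate 1 and triangles replicate 2. The adventitial and alveolar fibroblast means separate bright from dim arrays in every condition, the mesothelial mean separates bright PNX replicate 1 (7.71) from replicate 2 (5.57), and the mitosis mean of the bright arrays lies lowest after SHAM and highest in PNX dnFGFR.

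The same contrast was read in the other conditions, with which the PNX comparison shares no arrays. The fit shares its estimate of each gene's spread among all groups, so calls in the conditions are not independent of each other. Of the 1259 genes higher in bright cells after PNX, 899 also passed as higher after SHAM (71.4%, against 11.5% of all genes) and 1082 in PNX dnFGFR (85.9%, against 21%). Of the 783 lower genes, 574 passed as lower after SHAM (73.3%, against 7.53%) and 695 in PNX dnFGFR (88.8%, against 13.5%). No gene called after PNX was called in the opposite direction in either. Across the 11073 genes, which are not independent replicates, the bright minus dim difference after PNX correlated with that after SHAM at Pearson's r = 0.859 and with that in PNX dnFGFR at 0.876. The gates, reporter and array type are common to all. By list, the adventitial genes had 19 of 20 higher after SHAM and 17 in PNX dnFGFR, and the alveolar fibroblast genes 14 and 16 of 17 lower.

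**Figure D4:**
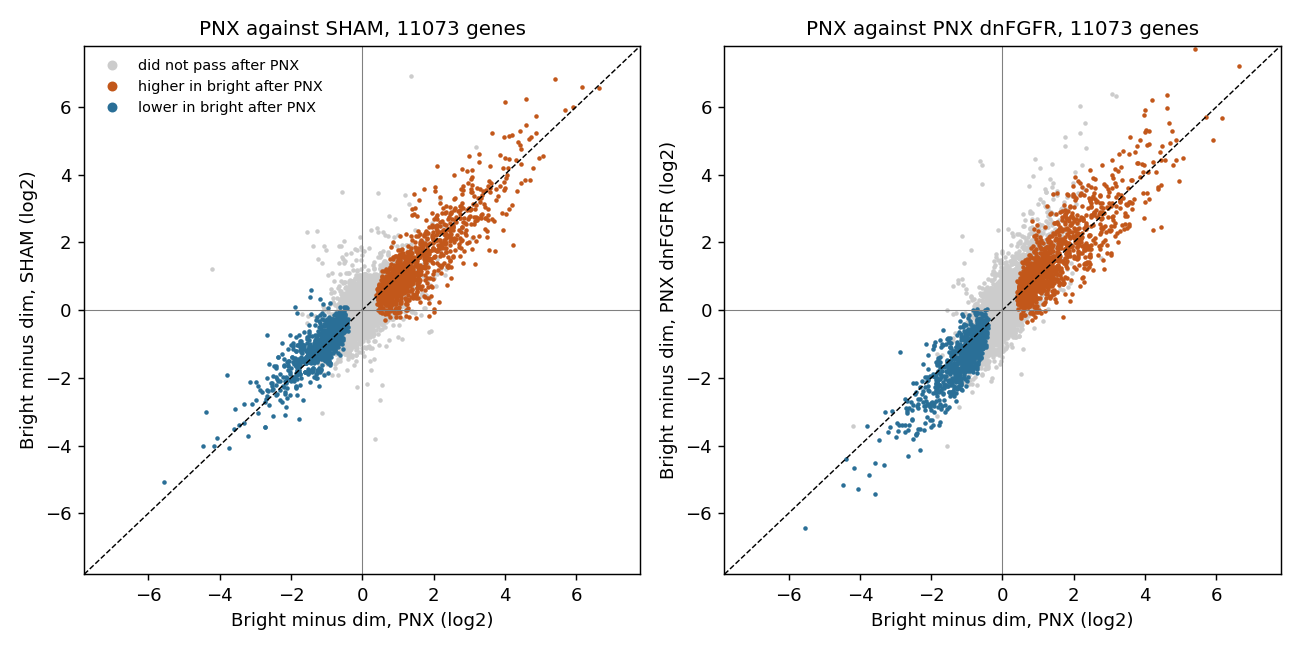
Bright minus dim log2 difference after PNX (x axis) against that after SHAM (left) and in PNX dnFGFR (right), 1 point per gene, with the line of equality dashed; orange genes were higher and blue lower after PNX. Nearly all coloured points lie in the lower left or upper right quadrants, 1235 of the 1259 orange and 771 of the 783 blue ones in the left panel.

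Whether the gap, the signed bright minus dim difference, differed from the gap in another condition was tested directly. For PNX minus SHAM limma called no gene, and 495 (4.47%) had an unadjusted p below 0.05. For PNX minus PNX dnFGFR it called none either, and 909 (8.21%) had such a p. The 5 genes with the smallest p-values in each direction are described as values that did not pass. No held value is given for a difference of gaps. Signals below the filter level enter the differences of gaps of Cthrc1, Postn, Birc5, Entpd2, Cdh13, Mpzl2, Pnpt1 and Flrt3. Cthrc1 had SHAM signals of 4.32 and 4.73 on the bright and 2.65 and 2.55 on the dim arrays, so that its gap of 4.22 after PNX stood against 1.93 after SHAM, a difference of 2.30 ± 0.34 (unadjusted p = 6.3e-05, adjusted p = 0.17). All 4 SHAM signals of Cthrc1 lay below the filter level, so its SHAM gap is not shown to be above background, and its held PNX gap was 2.13. Postn had SHAM signals of 6.12 and 6.16 on the bright and 4.47 and 4.24 on the dim arrays, gaps of 3.56 and 1.78 and a difference of 1.77 ± 0.34 (unadjusted p = 0.00052, adjusted p = 0.57). Birc5 was at 5.49 and 5.47 on the bright and 5.40 and 5.14 on the dim arrays after SHAM, a difference of gaps of 1.67 ± 0.31 (unadjusted p = 0.00040, adjusted p = 0.57). Entpd2 had the opposite order, with a gap of 3.63 after PNX and 5.23 after SHAM, a difference of -1.60 ± 0.22 (unadjusted p = 3.5e-05, adjusted p = 0.17). Its dim signals were 4.98 and 4.84 after PNX and 4.09 and 3.82 after SHAM, all below the filter level. The size of this difference thus rests in part on signals not shown to lie above background. Scube1 was lower in bright cells after PNX, at -1.43 (adjusted p = 0.0060), against a SHAM gap of 0.61, a difference of -2.04 ± 0.39 (unadjusted p = 0.00045, adjusted p = 0.57). Cdh13, of T-cadherin, had a gap of -2.67 (adjusted p = 9.7e-05, held difference -1.63) after PNX against -0.72 after SHAM, a difference of -1.94 ± 0.33 (unadjusted p = 0.00022, adjusted p = 0.46). The 4 probe sets of Cdh13 disagreed, with PNX differences from -2.67 to 0.083. Serpina3n, an acute-phase inhibitor gene, had SHAM signals of 10.36 and 10.32 on the bright and 7.92 and 8.06 on the dim arrays and PNX signals of 11.45 and 11.71 in bright and 11.11 and 11.52 in dim cells, a difference of gaps of -2.09 ± 0.29 (unadjusted p = 4.7e-05, adjusted p = 0.17). The remaining genes were Mpzl2 (4.16, unadjusted p = 2.7e-05, adjusted p = 0.17), Pnpt1 (1.23, unadjusted p = 0.00052, adjusted p = 0.57) and Flrt3 (-1.63, unadjusted p = 0.00070, adjusted p = 0.62), which, like Serpina3n, were not called in the PNX comparison itself.

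Against PNX dnFGFR, Itga8 had signals of 6.62 and 6.07 on the bright and 10.59 and 10.69 on the dim arrays there, a gap of -4.30 where PNX had -2.66, a difference of 1.64 ± 0.28 (unadjusted p = 0.00021, adjusted p = 0.39). Tns1, a tensin gene, differed by 0.98 ± 0.19 (unadjusted p = 0.00055, adjusted p = 0.45), Spon2, of spondin 2, by 1.26 ± 0.21 (unadjusted p = 0.00017, adjusted p = 0.38), and Gpld1 by 1.11 ± 0.20 (unadjusted p = 0.00032, adjusted p = 0.45). Epha4 had a gap of 3.42 in PNX dnFGFR and a difference of -1.44 ± 0.24 (unadjusted p = 0.00017, adjusted p = 0.38), Ahr, of the aryl hydrocarbon receptor, -1.52 ± 0.21 (unadjusted p = 4.9e-05, adjusted p = 0.27). Ccl24, an eosinophil chemokine, had a PNX gap of 0.84 (adjusted p = 0.021, and 0.097 without bright replicate 2 and 0.13 without dim replicate 2) and a difference of -1.78 ± 0.30 (unadjusted p = 0.00017, adjusted p = 0.38). Stmn2 and Cxcl5, at -2.49 ± 0.32 (unadjusted p = 2.3e-05, adjusted p = 0.25) and -2.91 ± 0.55 (unadjusted p = 0.00044, adjusted p = 0.45), and Haao, at 1.72 ± 0.34 (unadjusted p = 0.00058, adjusted p = 0.45), were not called in the PNX comparison. Signals below the filter level enter the differences of gaps of Epha4, Stmn2 and Cxcl5. Bright cells had 21 of the 24 mitosis genes higher in PNX dnFGFR, where 21% of all genes were, and none after SHAM, where 11.5% were. The medians were 1.97 and 0.30 beside 1.03 after PNX. Of the 19 DNA replication genes 18 and 1 were higher. The mean mitosis signal after SHAM was 5.55 and 5.33 on the bright and 5.57 and 4.66 on the dim arrays. Dim SHAM replicate 1 was thus at the level of the bright SHAM arrays, and dim SHAM replicate 2 was below them. That the list counts differ between conditions was not tested as a list, and Birc5 is the only gene of the 2 lists among the smallest p-values.

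Bright PNX replicate 1 bore on the PNX dnFGFR comparison. Without it, 50 genes passed, 7 with a more positive and 43 with a more negative gap after PNX than in PNX dnFGFR. Cdh2, of N-cadherin, which mesothelial cells also carry, had signals of 7.63 and 3.80 on the bright PNX arrays, 8.51 and 8.75 on the bright PNX dnFGFR arrays and 3.47 and 3.32 on the dim PNX arrays. Its difference of gaps was -5.12 without replicate 1 (adjusted p = 0.0028) and -3.21 with all arrays (adjusted p = 0.57). Rarres1, a gene induced by retinoids, had 6.90 and 3.69 on the bright PNX arrays, and a difference of -4.06 without replicate 1 (adjusted p = 0.0028). Cxadr, of the virus receptor CAR, had 8.25 and 4.55, and Bnc1, the mesothelial gene given above, passed as well. For all 50 genes bright replicate 1 lay nearer the mean of the bright PNX dnFGFR arrays than replicate 2 did, a direction that leaving it out favours. The mean mesothelial signal of the bright PNX dnFGFR arrays was 6.82 and 7.52, beside 7.71 and 5.57 on the bright PNX arrays, and 1 of the 50 genes is in the mesothelial list. How far the mesothelial signal takes part in these values was not tested.

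**Figure D5:**
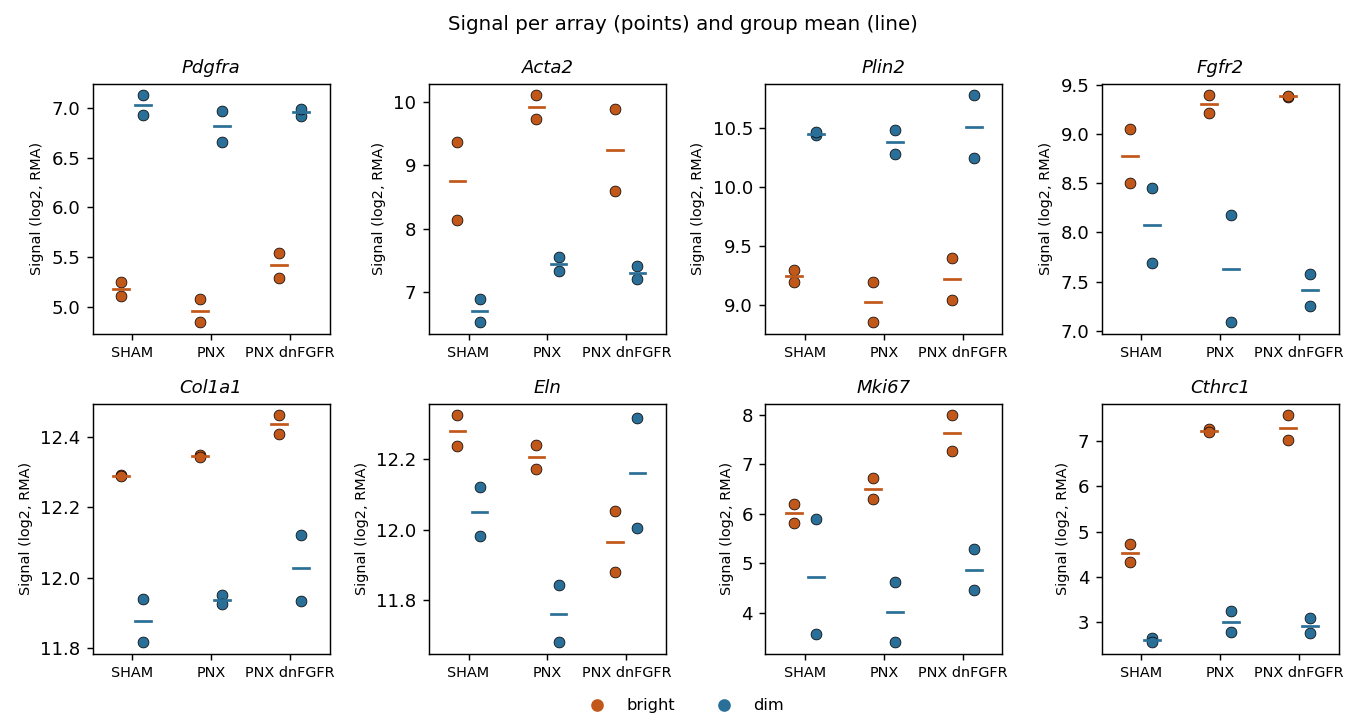
Log2 signal (y axis) of 8 genes on the 12 arrays by condition; orange points are bright, blue dim arrays, and bars are means of 2 arrays. Pdgfra and Plin2 lie lower and Acta2 and Cthrc1 higher on bright than on dim arrays in each condition, Cthrc1 reaches 7.27 and 7.20 on the bright PNX arrays, and Col1a1 and Eln span less than 1 log2 over all arrays.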

How the data were processed

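Signals were log2 values of 45141 probe sets on 12 Affymetrix arrays, deposited by the authors and made with RMA, per the submitters' processing notes. RMA subtracts background, equalises the distributions of arrays by quantiles and summarises probes; no version is given in the sources used here. Amplification over 25 cycles from 2000 cells and quantile normalization can compress differences and hide a change in total RNA. Probe sets were named through the platform annotation, with symbols updated from RefSeq: 28898 had 1 gene, 551 several and 15588 none, and only the first were used. Each of 17097 genes is represented by its brightest probe set, averaged over the 12 arrays. Tested were the 11073 genes above the median signal, log2 5.101, on at least 2 arrays. Group means of all 6 groups (2 arrays each, array medians 5.06 to 5.13) were fitted in limma 3.58.1 (R 4.3.3), so the spread comes from 6 residual degrees of freedom shared by all groups, with Benjamini-Hochberg adjustment over all tested genes and a threshold of 0.05; limma's adjusted p is meant throughout. The fit was tested on simulated data. The genes named were the 15 largest held differences in each direction among called genes with no overlap of arrays, the 5 smallest p-values in each direction for each difference of gaps, fixed key genes, and members of 43 gene lists, which overlap. The comparison, lists and members were chosen with earlier results of these data known. Alternatives varied the filter, normalization, probe set rule, variance model, replicate block, samples fitted and arrays left out. With 1 PNX array left out, the lone array of its group is assumed to vary like the other groups. The number of arrays limits the precision.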

Additional observations from a re-analysis of the deposited data

How the results depend on the processing

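The 2042 genes called between bright and dim cells after PNX became 1270 (784 higher and 486 lower) when the other groups were left out of the fit, which leaves fewer samples to estimate the spread, and 1110 to 2042 with 1 array left out; the cause of the latter range was not tested. Of the 214 genes named, 196 were called after PNX, and none of these changed direction; 13 calls were lost in that smaller fit, 5 with the replicate block fixed, and 10, 14, 11 and 18 without bright replicate 1, dim replicate 1, bright replicate 2 and dim replicate 2. Among uncalled genes, the bright minus dim difference changed sign over the arrays left out for Bnc1 (-0.28 to 3.06), Upk3b (-0.58 to 3.15), Flrt3 (-0.17 to 0.56), Pnpt1 (-0.060 to 0.42), Stmn2 (-0.41 to 0.18), Sftpc (-0.34 to 0.35), Hba-a1 (-3.44 to 2.27) and Scgb1a1 (-2.14 to 3.05). It also did for Sftpc after another quantile normalization (-0.074) and for Stmn2 with the mean of probe sets (0.25). Cxcl5, Flrt3 and Mpzl2 have no difference with low values raised, since all 4 PNX signals lie below the filter level. For the difference between PNX and SHAM 1 gene passed with the mean of probe sets and 1 with the replicate block, and 0 to 1 with an array left out. For the difference between PNX and PNX dnFGFR 1 passed with low values raised to the filter level and 0 to 50 with an array left out. Same-numbered arrays of the bright and dim gates deviated together little, with correlations of 0.003 after PNX, 0.128 in PNX dnFGFR and 0.005 after SHAM, and whether same-numbered gates share animals is not given, so the numbers were not used to pair the samples. With the replicate block fixed 1829 genes were called after PNX and with it random 2081. Signals under log2 5.101 bound the differences of genes that are low in 1 gate.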
